A study of Rattus norvegicus with 30 samples.

Results

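Expression of 9 genes that mark the projection neurons of the striatum was examined in brain RNA-seq of 30 male Sprague Dawley rats. The members are the table rows with the gene symbols Drd1, Pdyn, Tac1, Drd2, Adora2a, Penk, Gpr6, Ppp1r1b and Rgs9. All 9 symbols were found among the 17134 genes of the table. The rule uses symbols and no measured value, but the set was proposed with earlier results of these data known. The rats form 3 groups of 10. Wild-type (WT) rats express rat amylin, HIP rats express human amylin in the β-cells of the pancreas beside their own rat amylin, and amylin knockout (AKO) rats lack amylin. All were on a normal diet. HIP and WT rats were 15 to 16 months old, and the age of the AKO rats used for sequencing is not given in the sources used here. Each rat gave 1 library.

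The striatum, the input nucleus of the basal ganglia, is built mainly of inhibitory spiny projection neurons of 2 kinds. Neurons of the direct pathway carry the dopamine receptor D1 (Drd1) and release the peptides made from prodynorphin (Pdyn) and from the tachykinin precursor (Tac1, substance P), and they project to the output nuclei. Neurons of the indirect pathway carry the dopamine receptor D2 (Drd2), an adenosine receptor (Adora2a) and the constitutively active receptor Gpr6, release the enkephalins made from Penk, and project to the external pallidum. D1 and Adora2a receptors raise cyclic AMP and D2 receptors lower it. DARPP-32 (Ppp1r1b) is the phosphatase inhibitor that relays this signal in both kinds of neuron, and Rgs9 is a regulator that shortens signalling through the D2 receptor and other receptors coupled to inhibitory G proteins. Several of these genes are also transcribed outside the striatum, Penk, Pdyn and Tac1 in cortical and olfactory bulb neurons and Ppp1r1b in deep cortical neurons.

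Penk and Pdyn are classical targets of cyclic AMP signalling, and the promoter sequences were searched for the cyclic AMP response element. Of the 9 genes, 6 had a promoter entry in the RefSeq table for the rat assembly GRCr8, which gives no sequence for Penk, Adora2a and Ppp1r1b. The motif searched was CGTCA, read on both strands and so also as TGACG, and its palindrome TGACGTCA, in which both overlap. In the 250 bases before the start site, CGTCA or TGACG was present in 2 of these 6 promoters and in 18.2% of the 33469 promoters of the table, and the palindrome was present in 1 of the 6 and in 1.59% of all. The promoters of Tac1 (chr4:36645333-36645582, plus strand), Gpr6 (chr20:46075252-46075501, minus strand) and Pdyn (chr3:137366504-137366753, minus strand) are shown because Gpr6 followed Pdyn across the 30 rats (rho = 0.77) and Tac1 did not follow it by rank. Capitals mark the motif, which begins at position -206 in Tac1 and -93 in Gpr6, counted from the start site, and it was not found in the Pdyn window.
Tac1: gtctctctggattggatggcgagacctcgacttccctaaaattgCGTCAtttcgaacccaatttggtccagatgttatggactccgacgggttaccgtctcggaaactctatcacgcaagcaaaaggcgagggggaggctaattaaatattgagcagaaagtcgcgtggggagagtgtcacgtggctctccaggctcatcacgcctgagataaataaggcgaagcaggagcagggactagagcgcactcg
Gpr6: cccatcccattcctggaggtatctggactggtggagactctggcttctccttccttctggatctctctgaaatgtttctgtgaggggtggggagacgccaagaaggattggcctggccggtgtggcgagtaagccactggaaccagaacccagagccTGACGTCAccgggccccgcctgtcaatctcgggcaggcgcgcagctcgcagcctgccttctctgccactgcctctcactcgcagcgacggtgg
Pdyn: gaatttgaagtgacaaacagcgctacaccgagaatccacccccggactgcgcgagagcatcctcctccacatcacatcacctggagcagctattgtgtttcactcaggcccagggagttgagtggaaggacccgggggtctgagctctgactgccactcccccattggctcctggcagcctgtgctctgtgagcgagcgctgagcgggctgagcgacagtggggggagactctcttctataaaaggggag

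The values are normalized counts on genes, totalling 15.4 to 17.98 M (mega) per rat, and the reads behind them were estimated at 12.9 to 23.6 M per rat. The value of 1 read lay between 0.728 and 1.37 normalized counts. Values of different genes are not corrected for gene length, so levels are compared between rats and not between genes. The tissue is labelled frontal cortex, while the study's methods name cerebral cortex and its text also names hippocampus. The neocortical genes were present at high levels, with a median of 30095 normalized counts for the glutamate transporter gene Slc17a7. Library 10RT43 (WT) went against this label. It held 0 normalized counts of Fezf2, a gene of deep layer neurons, and its mean log2 level of the 6 cerebellum genes found was 13.2, against a median of 4.33 over the 30 rats. The same list stood at 10.1 in 12RT23 (HIP), pineal gland genes stood at 10.0 in 10RT46 (HIP, median of 30 rats 1.45), and choroid plexus genes stood at 9.38 in 10RT46 and 7.07 in 7AKO19 (AKO, median 2.48). These 4 were picked by the cerebellum, pineal gland and choroid plexus lists only. Libraries rich in olfactory bulb genes, such as 10RT51 (list mean 9.86, median of 30 rats 5.08), stayed in when the 4 were left out. Several results are given with and without these 4 libraries. In RNA from a piece of tissue, fewer neurons of a kind and less RNA per neuron cannot be told apart.

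Direct pathway genes varied widely inside every group. Drd1 ranged from 87.3 (10RT43) to 807 (10RT45) normalized counts in WT rats, with a median of 247. It ranged from 159.1 (12RT23) to 913 (10RT54) in HIP rats, with a median of 230.1, and from 118 (6AKO35) to 1008 (4KAH35) in AKO rats, with a median of 334. The 3 groups overlapped over most of this range, and the highest AKO rat was 8.55-fold above the lowest AKO rat. Pdyn, the dynorphin precursor, ranged from 10.8 (10RT43) to 1593 (10RT55) in WT rats, with a median of 792. It ranged from 293 (10RT49) to 896 (10RT52) in HIP rats, with a median of 558, and from 190.4 (6AKO35) to 1046 (4KAH27) in AKO rats, with a median of 565. Library 10RT43 stood far below the other WT rats, of which the next lowest was 10RT50 at 206. Tac1, the substance P precursor, ranged from 0 (10RT43) to 244 (10RT55) in WT rats, with a median of 104. It ranged from 18.96 (10RT52) to 162 (10RT54) in HIP rats, with a median of 66.1, and from 35.2 (7AKO30) to 384 (4KAH27) in AKO rats, with a median of 115. The lowest WT rat other than 10RT43 was 10RT38 at 25.6, so the WT and HIP ranges overlapped for Tac1.

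Indirect pathway genes also spread widely. Drd2 ranged from 56.8 (10RT51) to 772 (10RT55) normalized counts in WT rats, with a median of 114. It ranged from 39.8 (10RT48) to 576 (10RT54) in HIP rats, with a median of 76.7, and from 53.6 (6AKO35) to 619.9 (4KAH27) in AKO rats, with a median of 84.6. In each group the highest rat was at least 6.75-fold above the group median, while the 3 medians lay between 76.7 and 114. Adora2a, whose receptor opposes D2 signalling, ranged from 70.6 (10RT43) to 1361 (10RT55) in WT rats, with a median of 166. It ranged from 47.6 (12RT23) to 698 (10RT54) in HIP rats, with a median of 104, and from 70.3 (7AKO30) to 1297 (4KAH27) in AKO rats, with a median of 111. The same rat of each group was highest for both receptors, and over all rats the highest Adora2a value was 28.6-fold above the lowest. Gpr6 ranged from 0 (10RT43) to 311 (10RT55) in WT rats, with a median of 52.8. It ranged from 19.4 (10RT49) to 242 (10RT54) in HIP rats, with a median of 47.3, and from 16.4 (7AKO42) to 394 (4KAH27) in AKO rats, with a median of 45.96. Apart from 10RT43 the lowest WT value of Gpr6 was 23.7, inside the range of the other groups. Penk, the enkephalin precursor, varied least of the 9 genes. It ranged from 1585 (10RT43) to 6919 (10RT55) in WT rats, with a median of 2954. It ranged from 1346 (10RT48) to 4021.5 (10RT54) in HIP rats, with a median of 2148, and from 1207 (7AKO42) to 6904 (4KAH27) in AKO rats, with a median of 2348. The highest and the lowest rat were thus 5.73-fold apart for Penk, against 19.4-fold for Drd2.

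The pair of genes shared by both pathways behaved likewise. Ppp1r1b (DARPP-32) ranged from 1323 (10RT51) to 8738 (10RT55) normalized counts in WT rats, with a median of 3529.6. It ranged from 1534 (10RT53) to 6509.7 (10RT54) in HIP rats, with a median of 2690.5, and from 1424 (6AKO35) to 8454 (4KAH27) in AKO rats, with a median of 3774. For Ppp1r1b the cerebellum-rich library 10RT43 lay near the middle of the WT rats at 3238. Rgs9 ranged from 66.8 (10RT38) to 981 (10RT55) in WT rats, with a median of 166. It ranged from 50.3 (10RT48) to 716 (10RT54) in HIP rats, with a median of 102, and from 78.0 (6KAH99) to 963 (4KAH27) in AKO rats, with a median of 170.1. The highest rat of each group was again 10RT55, 10RT54 or 4KAH27.

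**Figure D1:**
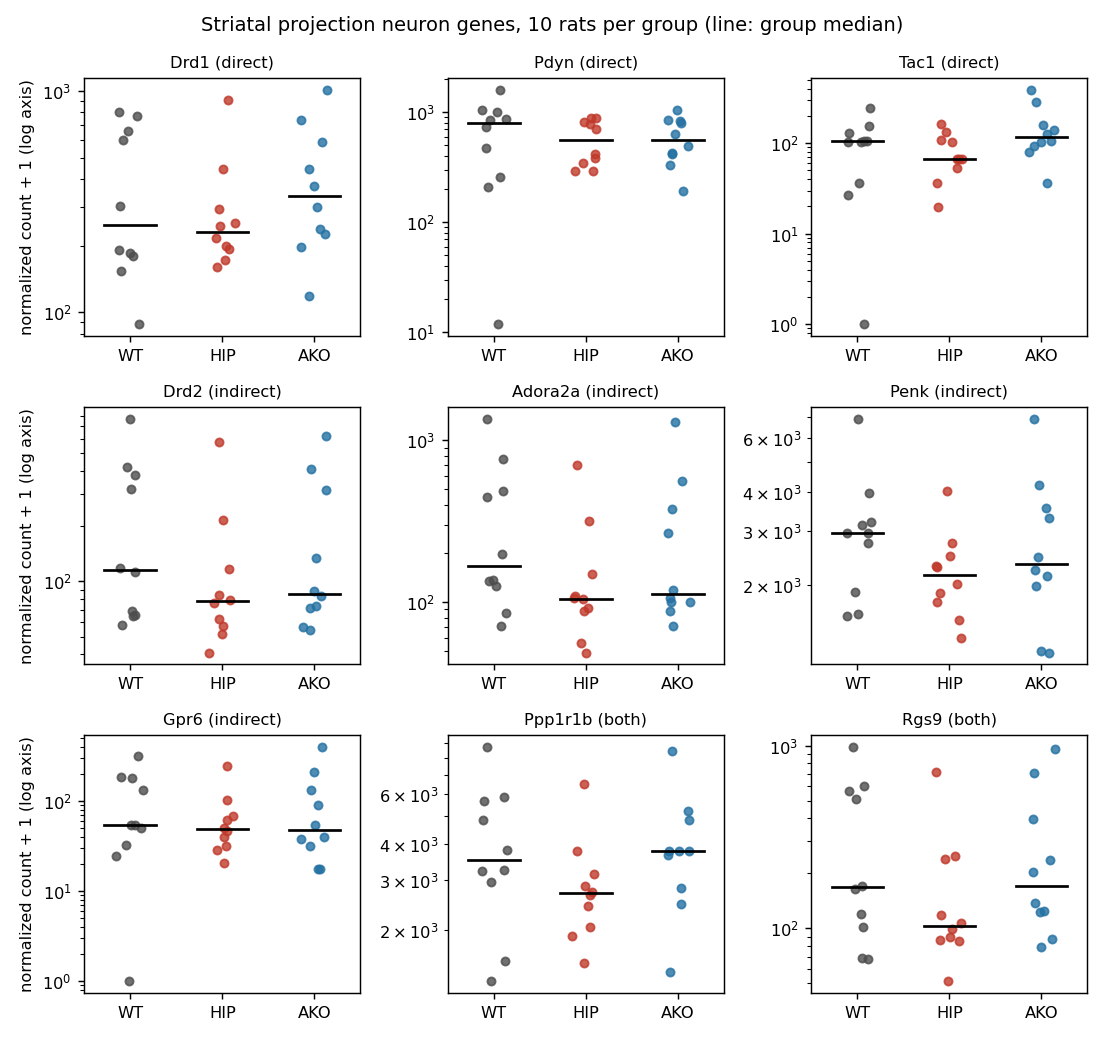
Normalized counts + 1 (log axis, y) of the 9 genes in WT, HIP and AKO rats (x), with 1 point per rat, 10 rats per group and the group median as a line. The groups overlap in every panel, and 1 WT rat (10RT43) sits far below the others for Pdyn, Tac1 and Gpr6.

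High values of different genes came from the same rats. For 6 of the 9 genes (Drd1, Drd2, Adora2a, Gpr6, Ppp1r1b and Rgs9) the 8 highest rats were the same 8, namely the WT rats 10RT39, 10RT45, 10RT47 and 10RT55, the HIP rat 10RT54 and the AKO rats 4KAH27, 4KAH35 and 7AKO28. Of these 8 rats, 6 were among the 8 highest for Penk, 6 for Tac1 and 5 for Pdyn. Below them the way the values fell differed between genes. For Drd2 the 8th value was 314, the 9th 215 (10RT41, HIP) and the 10th 133.04 (7AKO19, AKO). For Rgs9 these values were 397, 249 and 238, and for Ppp1r1b 4861, 3821 and 3795, with the larger drop after the 8th rat. The HIP group thus held 1 of the 8 rats, the WT group 4 and the AKO group 3. WT rat 10RT55 was the highest of all rats for 6 genes, AKO rat 4KAH27 for 2 and AKO rat 4KAH35 for Drd1.

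Set against other genes, this spread was large. On the log2(normalized count + 1) scale the SD within groups ran from 0.64 for Penk to 1.71 for Gpr6, while the median over 13026 genes with a mean of at least 50 normalized counts was 0.26. Penk stood at the 91.9th percentile of these genes, and Gpr6 at the 99.7th. Without the 4 libraries with cerebellum, pineal or choroid plexus signal the SD of Pdyn fell from 1.32 to 0.83, that of Tac1 from 1.52 to 1.01 and that of Gpr6 from 1.71 to 1.34. The SD of Drd2, at 1.27 with and 1.34 without them, did not fall. Over all 30 rats, membership of the WT, HIP or AKO group accounted for between 0.407% (Gpr6) and 9.11% (Tac1) of the variance of a gene.

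**Figure D2:**
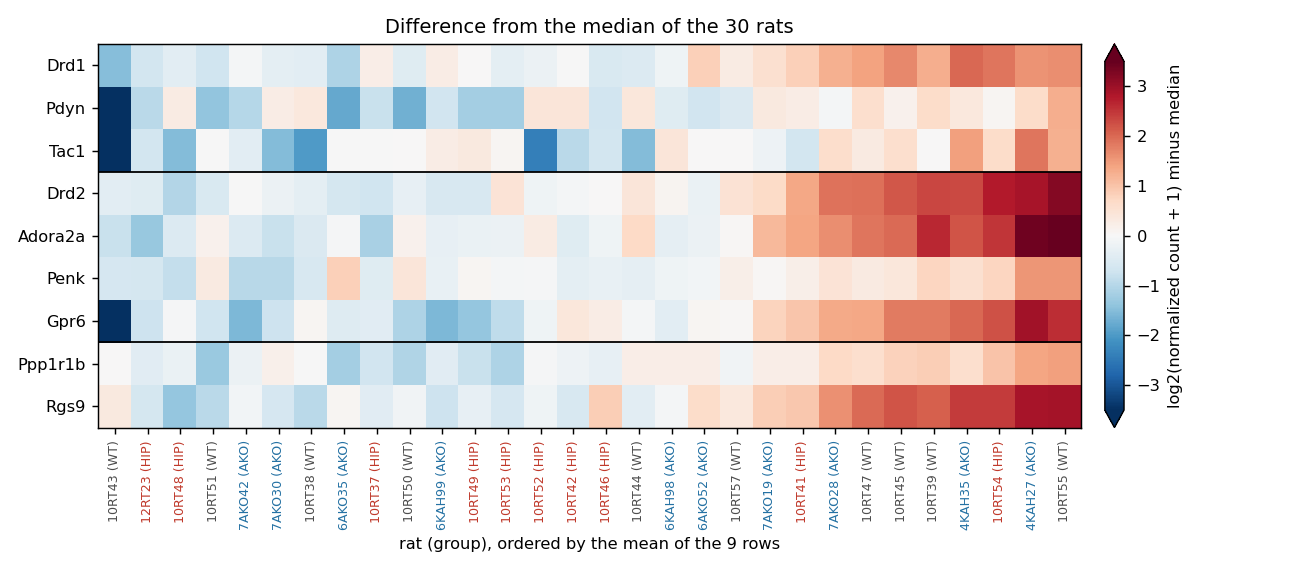
Difference of log2(normalized count + 1) from the median of the 30 rats (colour) for the 9 genes (rows: direct pathway genes, then indirect pathway genes, then genes of both) in each rat (columns, group in brackets and by label colour), ordered by the mean of the 9 rows. The red columns at the right end hold rats of all 3 groups, and the columns from 7AKO28 to 10RT55 are the 8 rats named in the text; colours are cut at 3.5 log2 units.

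Relations between the genes were measured across the 30 rats on log2(normalized count + 1), for 36 pairs, by Pearson's r and Spearman's rho with two-sided permutation tests of 100000 resamples and Benjamini-Hochberg adjustment over the 36 pairs. All 36 values of rho were positive, from 0.10 to 0.87 with a median of 0.71, and adjusted p was under 0.05 for 34 of them and for 33 of the values of r. The genes were chosen as markers of the same neurons, so a positive relation is what the choice of genes favours. Drd2 and Adora2a, which indirect pathway neurons carry together, had an r of 0.95 and a rho of 0.81 (permutation test, adjusted p = 2.77e-05 for rho, where 1e-05 is the smallest unadjusted p that the resamples can give). Without the 2 rats farthest from the Drd2 median, 10RT55 and 4KAH27, r was 0.93, and within groups it was 0.97 in WT, 0.91 in HIP and 0.95 in AKO rats. Adora2a and Penk had the highest rho, 0.87 (r = 0.84). Drd2 and Rgs9 had an r of 0.94 and a rho of 0.82.

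Direct pathway genes were less tightly linked to each other than indirect pathway genes, as ranges of rho. The 6 pairs of indirect pathway genes had rho values of 0.59 to 0.87. The 3 pairs of direct pathway genes had 0.10 (Pdyn and Tac1), 0.56 (Drd1 and Pdyn) and 0.71 (Drd1 and Tac1). Across the pathways, 12 pairs had 0.23 to 0.77, and Drd1 with Drd2, the receptors that define the pathways, had an r of 0.87 and a rho of 0.73. Within groups Drd1 with Drd2 had a rho of 0.88 in WT, 0.36 in HIP and 0.75 in AKO rats. The r within groups was 0.93, 0.85 and 0.85 in the same order, and the difference between groups was not tested. For both genes the 8 highest rats were the same 8. The difference between the direct, indirect and cross-pathway sets of pairs was not tested, since pairs share genes and rats. The 21 pairs that leave out Pdyn and Tac1 all had rho values of at least 0.40. The r of Penk with Ppp1r1b (0.45) rested on 10RT55 and 4KAH27, without which it was 0.18. Their rho was 0.40, and 0.42 without the 4 libraries of other tissue, and it was not computed without 10RT55 and 4KAH27.

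**Figure D3:**
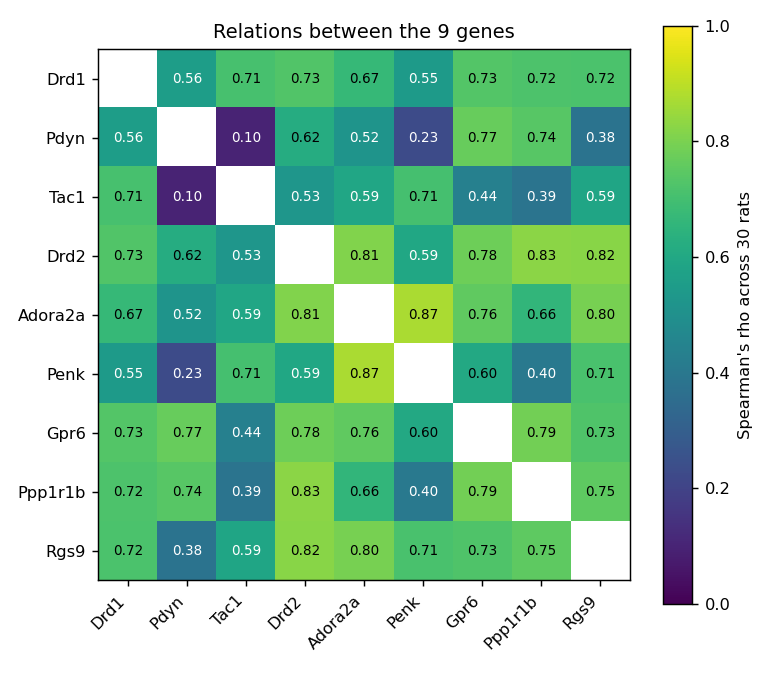
Spearman's rho (colour and number) across 30 rats for each pair of the 9 genes. The lowest values are those of Pdyn with Tac1 (0.10) and Pdyn with Penk (0.23), and the highest that of Adora2a with Penk (0.87).

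The 2 peptide genes of the direct pathway did not follow each other. Pdyn and Tac1 had a rho of 0.10 (two-sided permutation test, adjusted p = 0.591) and an r of 0.61 (adjusted p = 0.0204). The r rested on 10RT43 and 6AKO35, without which it was -0.02. Within groups rho was 0.49 in WT, -0.79 in HIP and 0.47 in AKO rats, and the difference between groups was not tested. The ratio of Pdyn to Tac1, which compares rats and not the levels of the genes, ran from 1.97 (10RT50) to 33.2 (10RT38) in the 9 WT rats in which Tac1 was not 0. It ran from 2.22 (10RT49) to 47.3 (10RT52) in HIP rats and from 1.88 (6AKO35) to 22.7 (7AKO30) in AKO rats. Group medians of the ratio were 6.53, 5.73 and 3.78. Rats with a high ratio were thus present in every group, as were rats with a low ratio.

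Rats with more signal of olfactory bulb or hippocampus genes tended to have lower Pdyn and Ppp1r1b by rank. The list of olfactory bulb genes, of which 6 of 7 were found, had mean log2 levels of 4.33 to 9.86 in WT, 4.16 to 8.94 in HIP and 4.07 to 9.64 in AKO rats. Its defining markers reached 8224 normalized counts of Cdhr1 and 265 of Tbx21 in WT rat 10RT51, against medians of 399 and 2.43. Across the 30 rats the list mean had a rho of -0.63 with Pdyn (permutation test, adjusted over 72 relations, p = 0.000926), of -0.52 with Ppp1r1b (adjusted p = 0.00824) and of 0.35 with Tac1 (adjusted p = 0.0955). Without the 4 libraries of other tissue the values were -0.80, -0.55 and 0.23. Within groups the rho with Pdyn was -0.13 in WT, -0.93 in HIP and -0.49 in AKO rats. The rho with Tac1 was -0.006 in WT, 0.85 in HIP and 0.20 in AKO rats. The differences between groups were not tested. The list of hippocampus genes, of which 5 of 8 were found, had mean log2 levels of 5.02 to 6.65 in WT, 5.196 to 7.51 in HIP and 5.13 to 6.56 in AKO rats. Its rho was -0.57 with Ppp1r1b (permutation test, adjusted p = 0.00333) and -0.42 with Pdyn (adjusted p = 0.0435). Without the 4 libraries of other tissue both values were -0.58. The 5 rats with the highest means of the olfactory bulb list were 10RT50, 10RT51, 10RT49, 10RT53 and 6AKO35. These 5 ranked from 25th to 29th of 30 for Pdyn and from 26th to 30th for Ppp1r1b, and 6AKO35 ranked 3rd for Penk. The next 2 rats of the list did not share this place. For both Pdyn and Ppp1r1b, 4KAH35 (list mean 8.23) ranked 8th and 10RT57 (7.43) ranked 18th, so the ranking depends on where the list is cut. The part of olfactory bulb or hippocampus tissue in the levels of Pdyn and Ppp1r1b was not tested.

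**Figure D4:**
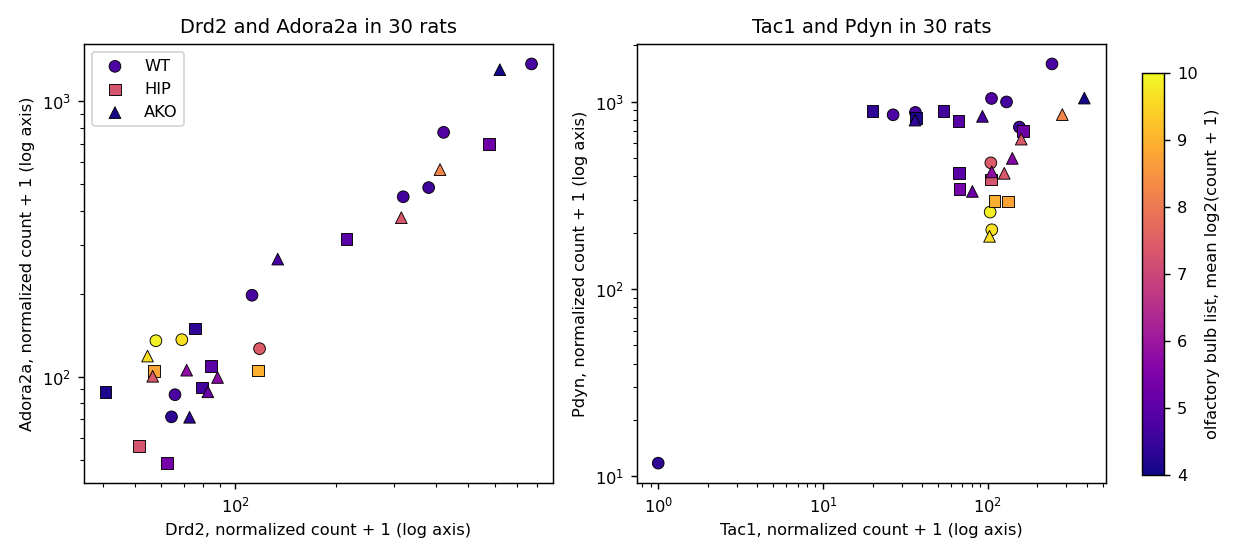
Normalized counts + 1 on log axes in 30 rats (circles WT, squares HIP, triangles AKO), with Drd2 against Adora2a at the left and Tac1 against Pdyn at the right, coloured by the mean log2(normalized count + 1) of the olfactory bulb list. Drd2 and Adora2a rise together (r = 0.95), while Pdyn and Tac1 do not by rank (rho = 0.10). The yellow points, richest in olfactory bulb genes, lie low for Pdyn.

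Balance between the pathways was described in each rat as the mean log2 level of Drd1, Pdyn and Tac1 minus that of Drd2, Adora2a, Penk and Gpr6. This difference had a median of -0.20 in WT rats (from -2.36 in 10RT43 to 0.19 in 10RT57), 0.26 in HIP rats (from -0.75 in 10RT54 to 0.93 in 10RT37) and 0.31 in AKO rats (from -0.86 in 4KAH27 to 1.07 in 6KAH99). The difference was below 0 in all 8 rats named above as high for most of the genes, from -0.87 in 10RT55 to -0.04 in 4KAH35. Among the other 22 rats it lay on both sides of 0. The WT group held 4 of these 8 rats, the HIP group 1 and the AKO group 3, so the group medians also follow where these rats fell. The difference is a score over chosen genes and was not tested. The ratio of Drd1 to Drd2 had medians of 2.11 in WT, 2.74 in HIP and 2.66 in AKO rats. The lowest ratios were 1.001 in 10RT55, 1.59 in 10RT54 and 1.19 in 4KAH27, in each group the rat with the highest Drd2. Drd2 is the denominator of the ratio, so a high Drd2 by itself lowers it. The highest ratios were 2.94 (10RT38), 5.76 (10RT37) and 6.30 (6AKO52).

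Levels were then compared between HIP and WT rats, the comparison of the study, by limma on log2(normalized count + 1). A p-value under 0.05 before adjustment was found for 0 of the 9, against 2.57% of the 17085 genes tested, and after adjustment for 0 genes of the table. All 9 group medians were lower in HIP rats, while 6 fitted differences were lower and 3 were higher. Over all genes tested the median fitted log2 difference was 0.002. The 9 genes had 36 positive relations in 36 pairs across rats, so these directions are not independent of each other. Of the 8 rats high for most of the genes, the WT group held 4 and the HIP group 1. Adora2a had the smallest p-value, with 176 ± 198 normalized counts in HIP and 381 ± 412 in WT rats (SD, n = 10 rats/group). The fitted log2 difference was -0.95 (95% interval -2.07 to 0.17, limma, p = 0.0919, adjusted p = 0.999), and 8 of 10 HIP rats lay below the WT median. Penk followed with 2237 ± 758 vs. 3099 ± 1545 normalized counts and a log2 fold change of -0.40 (-0.88 to 0.08, limma p = 0.0953), and 9 of 10 HIP rats lay below the WT median. Drd2 (-0.73), Rgs9 (-0.72), Ppp1r1b (-0.39) and Drd1 (-0.20) had intervals that held 0, as did Pdyn (0.27), Tac1 (0.23) and Gpr6 (0.01).

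Libraries weighed on this comparison. Without the 4 libraries of other tissue all 9 fitted differences were lower in HIP rats, and 0 of 9 passed p = 0.05. Pdyn was at -0.19, Tac1 at -0.41 and Gpr6 at -0.55. Libraries rich in olfactory bulb genes stayed in this fit. Leaving out HIP rat 10RT54, the rat of the HIP group that was highest for 8 genes, gave 3 of 9 (Adora2a, Drd2 and Penk, all lower). This rat is named for its high values of the members, so leaving it out by itself lowers their HIP means. Leaving out WT rat 10RT43 gave 2 of 9 (Adora2a and Penk), and leaving out WT rat 10RT38 gave 1 (Penk). Over all genes 309 to 779 passed before adjustment when 1 rat was left out. No result about the members is read from these counts. Weights that count variable libraries less gave 5 of 9 (Adora2a, Drd2, Penk, Ppp1r1b and Rgs9, lower in HIP rats), and 885 of all genes in place of 439.

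AKO and WT rats were compared in the same way, as knockout of the peptide against its normal rat form. Again 0 of 9 passed p = 0.05 before adjustment (limma), against 9.34% of 17058 genes, and 17 genes of the table passed it after adjustment. Tac1 had 150.1 ± 104.9 normalized counts in AKO and 100.3 ± 70.1 in WT rats (SD, n = 10 rats/group), a log2 fold change of 1.06 (95% interval -0.43 to 2.56, limma p = 0.155). Without the 4 libraries of other tissue, 10RT43 with its 0 for Tac1 among them, this difference was 0.45 (p = 0.297 by limma). The other 8 genes had differences between -0.35 (Adora2a) and 0.30 (Pdyn), and every interval held 0. Without the 4 libraries Adora2a was at -0.60, and Pdyn (-0.35) and Gpr6 (-0.47) turned from higher to lower in AKO rats.

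HIP and AKO rats were compared last, with human amylin beside rat amylin against no amylin. All 9 fitted differences were lower in HIP rats, while the median log2 difference over all genes tested was 0.005. The 9 genes moved together across rats, so these directions are not independent of each other. Before adjustment 1 of 9, Tac1, passed p = 0.05 (limma). Of 17092 genes 12.7% did so, 6.90% with the lower level in HIP rats, and 29 passed after adjustment. The directions did not all hold under other settings. Pdyn was at 0.16 without the 4 libraries. With the mean of the striatal list as a covariate, 6 of the 9 (Adora2a, Drd1, Drd2, Gpr6, Pdyn and Penk) were higher in HIP rats (limma p from 0.318 to 0.803). That list holds other markers of the same neurons, so this fit compares rats at an equal level of the list and asks a different question. The median of Gpr6 was also higher in HIP rats. Tac1 had 81.0 ± 44.4 normalized counts in HIP and 150.1 ± 104.9 in AKO rats (SD, n = 10 rats/group). The log2 fold change of Tac1 was -0.83 (SE 0.38, 95% interval -1.61 to -0.04, limma, p = 0.0393, adjusted p = 0.365), and 8 of 10 HIP rats lay below the AKO median. This call did not hold without the 4 libraries of other tissue (-0.86, limma p = 0.0643) or with all 30 rats in 1 fit (-0.83, p = 0.206). The difference of Tac1 was -0.35 (limma p = 0.228) with the striatal and -0.28 (p = 0.479) with the neocortical list as a covariate, and -0.70 (p = 0.0534) with sample-quality weights. Ppp1r1b had the next smallest p-value, with a log2 fold change of -0.42 (-0.95 to 0.11, limma p = 0.119). The HIP group takes part in 2 of the comparisons and the WT group in 2, so the 3 comparisons are not independent of each other.

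**Figure D5:**
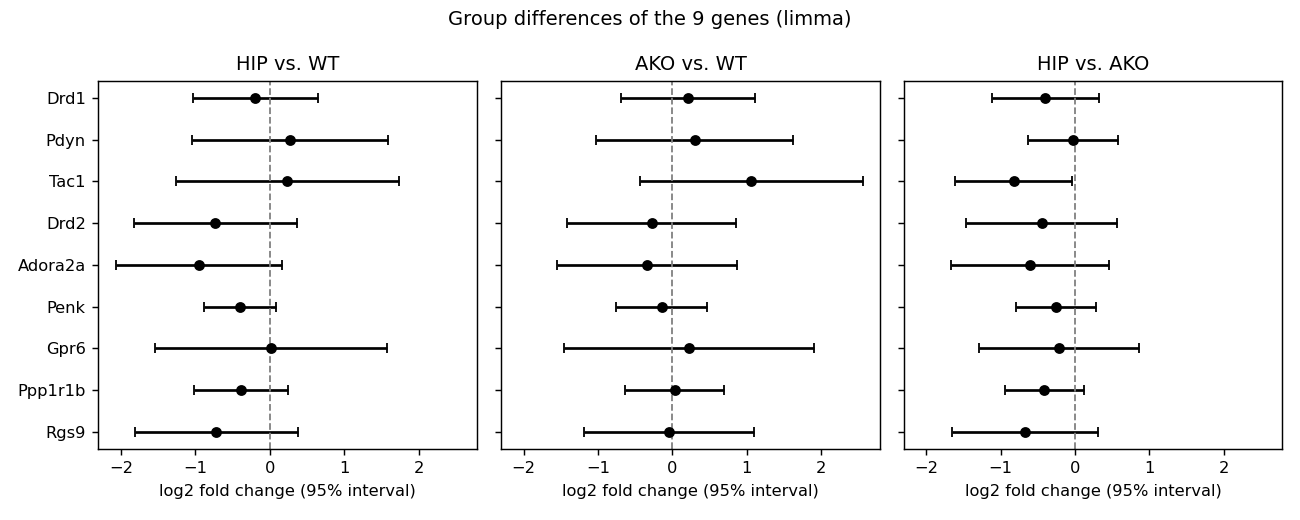
Log2 fold change (x, log2(normalized count + 1) scale) with its 95% interval (bars, limma) of the 9 genes (rows) in HIP vs. WT, AKO vs. WT and HIP vs. AKO rats. All intervals hold 0 but that of Tac1 in HIP vs. AKO, from -1.61 to -0.04.

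Other genes of the same neurons were examined as lists, which were chosen with earlier results of these data known. Of 20 other striatal projection neuron genes, 18 were found. In HIP vs. WT 0 of 18 passed p = 0.05 before adjustment by limma, in AKO vs. WT 1 was higher (Sh3rf2, 0.74, p = 0.0492), and in HIP vs. AKO 3 were lower, namely Sh3rf2 (-1.06, p = 0.00121), the olfactory and striatal G protein subunit Gnal (-0.59, p = 0.0197) and the adenylyl cyclase Adcy5 (-0.28, p = 0.0499). Over all genes 2.57%, 9.34% and 12.7% passed in these comparisons, with 6.90% lower in the last. None of the list passed after adjustment. The median log2 fold changes of this list were 0.01, 0.24 and -0.12, while those of all genes tested were all within 0.01 of 0. Among 6 further direct pathway genes and 5 further indirect pathway genes, 0 passed p = 0.05 before adjustment in any of the 3 comparisons (limma). The 2 with the smallest p-values in HIP vs. WT were Eya1 (0.40, p = 0.0731) and Isl1 (-0.76, p = 0.142) for the direct pathway, and Six3 (-1.15, p = 0.297) and Gpr52 (0.29, p = 0.428) for the indirect pathway.

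Among genes that act beside the members, few passed p = 0.05 before adjustment, against 2.57% of all genes in HIP vs. WT, 9.34% in AKO vs. WT and 12.7% in HIP vs. AKO. Of 7 opioid and tachykinin receptors, through which the peptides act, Tacr2 was higher in HIP than in WT rats (0.59, limma p = 0.0316) at 8.80 ± 3.42 vs. 5.66 ± 2.22 normalized counts. The neurokinin B receptor gene Tacr3 was lower in AKO than in WT rats (-0.42, p = 0.0363), and Tacr3 (0.54, p = 0.0147) and the nociceptin receptor gene Oprl1 (0.23, p = 0.0220) were higher in HIP than in AKO rats. Of 5 dopamine and adenosine receptors found, 0 passed p = 0.05 in any comparison. Among 6 genes for the processing of peptide precursors, Pcsk1n, an inhibitor of the convertase PC1, was lower in HIP than in AKO rats (-0.34, p = 0.0295). Of 5 genes of the Rgs9 complex and its relatives, the receptor gene Gpr158 was lower in AKO than in WT rats (-0.40, p = 0.0321). Of 12 genes found of the DARPP-32 cascade, Prkar2b, a regulatory subunit of protein kinase A, was higher in HIP than in AKO rats (0.19, p = 0.0137). None of these passed after adjustment over all genes, and nothing particular to these lists is read from counts this small.

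Of lists for other neurons, the cholinergic one moved with the 9 genes across rats. A list of cholinergic neuron genes, of which 4 of 5 were found, had rho values between 0.51 (Pdyn) and 0.83 (Drd1) with the members over the 30 rats. Within HIP rats the values ran from 0.006 (Tac1) and 0.37 (Pdyn) to 0.77 (Ppp1r1b), so Tac1 did not follow the list in that group. The differences between groups were not tested. Its mean log2 level ranged from 0.88 to 4.80 in WT, 2.11 to 3.92 in HIP and 1.88 to 5.004 in AKO rats. Chat, which makes acetylcholine and marks cholinergic neurons, had 81.0 normalized counts in 10RT55, 57.6 in 4KAH27 and 29.7 in 10RT54, against a median of 15.6. Lhx8 and Gbx2 of this list had medians of 0 over the 30 rats. The 18 other striatal projection neuron genes had rho values between 0.29 (Pdyn) and 0.83 (Penk). Neocortical genes, 11 of 12 found, had mean log2 levels of 7.63 to 11.1 in WT, 10.3 to 11.1 in HIP and 10.3 to 10.9 in AKO rats, lowest in 10RT43. Their mean level had rho values between -0.37 (Tac1) and 0.47 (Pdyn) with the members, with Penk at -0.36, Drd1 at 0.06 and Drd2 at -0.01. Without the 4 libraries of other tissue Tac1 was at -0.56, Penk at -0.47 and Pdyn at 0.52. The mean of the cortical interneuron genes had values between -0.17 (Ppp1r1b) and 0.44 (Penk) over the 30 rats. Between groups 1 of these 11 was higher in HIP than in WT rats, Neurod6 (0.37, limma p = 0.00466), and 3 were higher in HIP than in AKO rats, among them Neurod6 (0.32, p = 0.0232) and Tle4 (0.17, p = 0.0312). Of 9 cortical interneuron genes found, the transporter gene Slc32a1, which loads GABA into vesicles in interneurons and striatal neurons alike, was lower in HIP than in WT rats (-0.38, limma p = 0.00210) and lower in AKO than in WT rats (-0.31, p = 0.0366). Over all genes 2.57% passed in HIP vs. WT, 9.34% in AKO vs. WT and 12.7% in HIP vs. AKO, and none of these passed after adjustment. The part of cholinergic, cortical or GABA neurons in the levels of the 9 genes was not tested.

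The genes most like the members were then searched among all genes, by Spearman's rho of deviations from the group means over 30 rats with the mean z score of the 9, as a description. Each point is a rat with 1 library, and the values carry no test. The closest was Ecel1, a membrane metallopeptidase gene, with a rho of 0.92, at 232 normalized counts in 4KAH27 and 5.98 in 10RT43. The transcription factors Isl1 (0.92), Six3 (0.91) and Lhx8 (0.91) followed. Six3 had 216 normalized counts in 10RT55, 182 in 4KAH27, 133.6 in 4KAH35, 97.6 in 10RT39 and 83.7 in 10RT54, against a median of 3.44. Isl1 had 25.1 in 4KAH35, 15.3 in 10RT55 and 12.3 in 4KAH27, and its median over 30 rats was 0. The 10 closest genes also held Syndig1l (0.82), Slc5a7 (0.81), Rasgrp2 (0.81), Cpox (0.79), Chat (0.78) and Lrrc10b (0.77). For the direct pathway mean the 5 closest were Ecel1, Adcy5, ENSRNOG00000019857, Isl1 and Lhx8, with rho values of 0.81 to 0.90, and for the indirect pathway mean they were Syndig1l, Rasgrp2, Six3, Lhx8 and Ecel1, with 0.84 to 0.91. Of the 10 genes, Isl1, Six3, Lhx8, Syndig1l, Slc5a7, Rasgrp2 and Chat were also on the lists described above.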

How the data were processed

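RNA from 30 rats was sequenced, and rats were grouped by the genotype in the sample labels. In Partek Flow (10.0.22.0228) the authors mapped reads on the rat build rn7 and quantified genes of Ensembl105. STAR 2.7.8a and Bowtie2 are named in the submitters' processing notes. The deposited signal is the gene count divided by a DESeq2 size factor per library, and it is not whole. Between 83.8% and 87.5% of the values below 30 in a rat were within 0.05 of a whole multiple of a single step, so reads were not recovered as whole numbers and no test of counts was run. A size factor does not correct for the mix of tissues in a sample, so a gene of 1 region moves with the share of that region.

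Two-sided limma tests (version 3.58.1, R 4.3.3, eBayes with trend) were run on log2(normalized count + 1), which makes changes of low genes look smaller. Each fit held the rats of the 2 groups compared and kept genes averaging at least 1, and p-values were adjusted by Benjamini-Hochberg over all of them. The fit was tested on simulated data. Correlations used Python 3.11.15 and scipy 1.17.1.

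The members and gene lists were chosen with earlier results of these data known. Genes named are the 9 members, in each list described those with p under 0.05 or else the smallest p, and the genes most like the member means. Slc17a7, Fezf2, Cdhr1, Tbx21 and Gabra6 were named after their values were seen. Alternatives were pseudocounts of 0.1 and 5, no filter, a filter at 10, a joint fit of 30 rats, robust eBayes, sample-quality weights, quantile or median-ratio scaling, list means of striatal or neocortical genes as covariates, and rats left out. Drd3, Gng7, Ido1, Ppp3r1, Slc18a3, Rasgrf2, Pvalb and Sp8 had no matching symbol and were not used here, and the values of 1 neocortical list gene are not reported here.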

Additional observations from a re-analysis of the deposited data

Results flagged for a closer look

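In each of 27 sets of 10 rats (9 genes in 3 groups), the highest and the lowest rat were examined by Dixon's ratio on log2(normalized count + 1), for which chance flags about 1 in 20 sets. A rat stood apart in 3 sets, and in all 3 it was WT rat 10RT43. It had 10.8 normalized counts of Pdyn, where the other WT rats had 206 to 1593. It had 0 of Tac1, where the other WT rats had 25.6 to 244. It had 0 of Gpr6, where the other WT rats had 23.7 to 311. The same library held 17979 normalized counts of the cerebellar gene Gabra6, against a median of 7.72 over the 30 rats.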

How the results depend on the processing

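Of 324 repeats of a fold change of a member under 12 settings, 278 kept direction and side of p = 0.05, 32 changed direction, 9 gained and 5 lost the threshold (limma). Of 540 repeats without 1 rat, 484, 37, 9 and 10 did so. No paired analysis was run, since the labels match no rat of a group with a rat of another group. The value of 1 read was 0.728 to 1.37 normalized counts, and the part of depth in the low values of Tac1 and Gpr6 was not tested. AKO rat 4KAH27, with the fewest estimated reads, had the highest Tac1 and Gpr6 of the 30 rats, at 384 and 394 normalized counts. WT rat 10RT43, next lowest in estimated reads, had 0 of both. The causes of the changes below were not tested.

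With sample-quality weights, members with an unadjusted p under 0.05 numbered 5 (HIP vs. WT), 1 (AKO vs. WT) and 0 (HIP vs. AKO), genes 885, 3930 and 4289, and genes with an adjusted p under 0.05 numbered 857 in AKO vs. WT and 1143 in HIP vs. AKO. The striatal list covariate gave 2 and 0 members (HIP vs. WT and HIP vs. AKO), 868 genes in HIP vs. WT and 26 adjusted in AKO vs. WT. The neocortical list covariate gave 1 and 0 members, 1290 genes in HIP vs. AKO (2179 without it), and 47 and 12 adjusted in AKO vs. WT and HIP vs. AKO. All 30 rats in 1 fit gave 0 members in HIP vs. AKO and 27 and 56 adjusted, and leaving out the 4 libraries of other tissue gave 0 members and 13 adjusted in HIP vs. AKO.

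Fold changes that changed direction in HIP vs. WT were Gpr6 (-0.18 with pseudocount 5, -0.95 with weights, -0.086 with quantile normalization, -0.15 with the striatal and -0.69 with the neocortical covariate, -0.55 without the 4 libraries), Pdyn (-0.42 with weights, -0.41 with the neocortical covariate, -0.19 without the 4) and Tac1 (-0.44, -0.38 and -0.41 likewise). In AKO vs. WT they were, with weights, the striatal covariate and without the 4 libraries, Gpr6 (-0.86, -0.44, -0.47) and Pdyn (-0.53, -0.20, -0.35), and with the first 2 of these Drd1 (-0.16, -0.072) and Ppp1r1b (-0.23, -0.055). In HIP vs. AKO the striatal covariate gave 0.14 for Adora2a, 0.074 for Drd1, 0.23 for Drd2, 0.42 for Gpr6, 0.078 for Pdyn and 0.10 for Penk, the neocortical covariate 0.069 for Gpr6 and 0.079 for Penk, and Pdyn was 0.11 with weights and 0.16 without the 4.

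Leaving out 1 rat gave 0 to 3 members in HIP vs. WT (3 without HIP rat 10RT54) and 0 to 3 in HIP vs. AKO (3 without 10RT54, 2 without AKO rat 6AKO35), 309 to 779 genes in HIP vs. WT (779 without HIP rat 10RT46), and 10 to 39 adjusted in AKO vs. WT and 17 to 70 in HIP vs. AKO. Ranges that crossed 0 were those of Gpr6 (-0.62 to 0.30), Pdyn (-0.31 to 0.47) and Tac1 (-0.42 to 0.46) in HIP vs. WT, of Gpr6 (-0.41 to 0.51), Pdyn (-0.28 to 0.50), Ppp1r1b (-0.13 to 0.18) and Rgs9 (-0.29 to 0.19) in AKO vs. WT, and of Gpr6 (-0.46 to 0.086) and Pdyn (-0.19 to 0.078) in HIP vs. AKO. Tac1 in HIP vs. AKO ran from -1.03 to -0.63 and lost p = 0.05 in 10 of 20 cases.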
